A study of Mus musculus with 69 samples.

Results

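Flow-sorted bone marrow progenitors of wild-type (WT) mice were compared, with 4 arrays of granulocyte-monocyte progenitors (GMPs) against 4 arrays of megakaryocyte-erythroid progenitors (MEPs). These are 8 of the 69 arrays of the series, and they were taken by genotype and cell type as labelled, in the run of arrays that share title numbers 10 to 13. All 8 came from C57Bl/6 Taconic WT mice at 7 weeks of age with no transgene and no treatment. Marrow of individual mice was stained and sorted, and RNA of the sorted cells was amplified and hybridized to Affymetrix Mouse Exon 1.0 ST arrays. Both populations were lineage-negative, Sca-1-negative and Kit-positive. GMPs were taken as CD34-positive cells with high Fcγ receptor II/III, and MEPs as CD34-negative cells with low Fcγ receptor II/III. A common myeloid progenitor (CMP) gate, CD34-positive with low Fcγ receptor, gave 3 further WT arrays (numbers 11 to 13). The same pair of populations was also measured in 4 and 4 arrays of 9-week-old mCG-PR mice, which carry the leukemia fusion gene PML-RARA in the mouse Ctsg locus, so that the Ctsg promoter drives it.

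As background, GMPs give rise to granulocytes and monocytes, and MEPs to red cells and to the platelet-forming megakaryocytes. PU.1 and the C/EBP factors drive the first program, and GATA1 with its partner FOG1 and the red cell factor KLF1 drive the second. PU.1 and GATA1 bind each other and each can restrain the other, so the split between the 2 populations is a textbook case of a lineage choice. GMPs fill their first (primary) granules with proteases and myeloperoxidase, while MEPs begin to assemble the heme pathway and the red cell membrane.

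Intensities are the deposited values on a linear scale. A gene's intensity here is the median over its probesets with 1 gene symbol and at least 200 in at least 1 of the 8 arrays, 200 being the study's own limit for noise. A level is therefore comparable between arrays for 1 gene but not between genes. Differences are on the log2 scale, GMP minus MEP, with the standard error of limma's fit. A gene is called when its Benjamini-Hochberg adjusted p in limma is under 0.05 and the change is at least 2-fold. Where all arrays of the dimmer group lay below 200, the fold is a lower bound, the brighter group's geometric mean over 200, and is written as "at least". Where only some of its arrays lay below 200, the fold is that of the measured values and is uncertain to that extent. Means are given ± SD over 4 arrays.

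The arrays did not all match their gates. Cd34 met its gate, at 1816, 2237, 2095 and 2148 in GMPs 10 to 13 against 40.2 to 56.9 in the 4 MEPs, and Kit, which both gates share, was 2009 ± 548 in GMPs and 1778 ± 309 in MEPs. Fcgr3, the gene of Fcγ receptor III, was 1522 and 1424 in GMPs 10 and 11 but 178 and 368 in the libraries labelled GMP 12 and 13, with 53.1 to 68.0 in MEPs. Among WT CMPs, whose gate is low for this receptor, Fcgr3 was 238 in array 11 but 1594 and 1376 in arrays 12 and 13. Fcgr2b went the same way, at 351 and 458 in GMPs 10 and 11, 167 and 194 in the libraries labelled GMP 12 and 13, and 161, 365 and 364 in CMPs 11 to 13. The libraries labelled GMP 12 and 13 and CMP 12 and 13 thus go against the Fcγ receptor part of their labels, whereas in the 4 mCG-PR GMPs Fcgr3 was 534 to 1029. Whether the GMP and CMP labels of numbers 12 and 13 were exchanged was not tested and is not settled by the sources used here. If they were, every value given for GMPs 12 and 13, and every mean over 4 GMPs, would include CMPs. The values given for CMPs 12 and 13, and the ranges over CMPs, would then include GMPs.

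The libraries labelled GMP 12 and 13 stood apart in other genes too. Car1, a red cell carbonic anhydrase, was 258 and 318 in GMPs 10 and 11 but 6115 and 5409 in the libraries labelled GMP 12 and 13, close to the MEPs at 7782 to 9140. The myeloid membrane gene Ms4a3 was 4723 and 4913 in GMPs 10 and 11 against 846 and 1392 in the libraries labelled GMP 12 and 13. Over 119196 probesets, GMPs 10 and 11 correlated with each other at r = 0.937 and with CMPs 12 and 13 at 0.912 to 0.924, higher than with the libraries labelled GMP 12 and 13 (0.854 to 0.873). The libraries labelled GMP 12 and 13 correlated with each other at 0.883 and with CMP 11 at 0.860 and 0.873. GMPs 10 and 11 correlated with CMP 11 at 0.868 and 0.867, so CMP 11 did not tell them from the libraries labelled GMP 12 and 13. These correlations are across probesets, which are not independent, and no 2 arrays held identical values. Xist, which is expressed from the inactive X chromosome of females, was 2954 to 4129 in arrays 10 and 11 of both populations and 26.3 to 38.8 in arrays 12 and 13, so sex ran with the split in GMPs. In CMPs the arrays with high Fcgr3, 12 and 13, were not the female one, since Xist was 4478 in CMP 11 and 32.2 and 28.5 in CMPs 12 and 13. The part of sex in the differences below was not tested. No sample was moved or left out of the fit. Some of the results that rest on these libraries are given both with all 4 GMPs and without GMPs 12 and 13. That alternative was chosen after the data were seen. Where it is not given, the difference is that of all 4 GMPs.

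**Figure D1:**
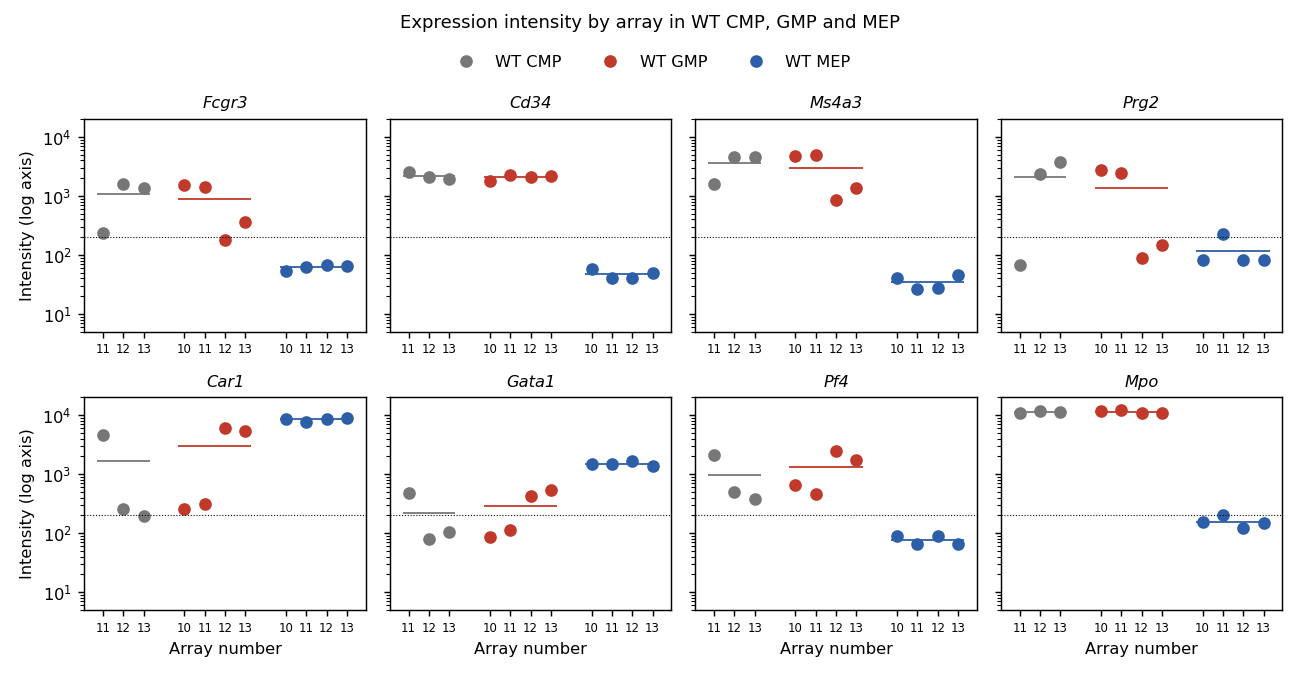
Expression intensity (log axis) of 8 genes in each WT array, by population and array number, with a bar at the mean of each population and a dotted line at 200. Cd34 and Mpo separate the 4 GMPs from the 4 MEPs with no overlap, whereas Fcgr3, Ms4a3 and Prg2 are lower, and Car1, Gata1 and Pf4 higher, in GMPs 12 and 13 than in GMPs 10 and 11.

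In the gene-level fit, 1149 of 14317 genes tested were higher in GMPs (8.03%) and 574 were higher in MEPs (4.01%). At 4-fold or more the counts were 423 and 153 genes. Of the genes called, 940 were below 200 in all 4 MEPs and 311 below 200 in all 4 GMPs. The median difference of all genes tested was -0.07, and 4702 genes did not overlap between the 8 arrays. At the probeset level 10845 of 119196 probesets were higher in GMPs (9.1%) and 7037 in MEPs (5.9%). Without GMPs 12 and 13, 1227 genes were higher in GMPs and 703 in MEPs, and 1576 genes were called both ways. Without GMPs 10 and 11 the counts were 1103 and 552, with 1387 genes shared. In a mixed population, fewer cells of a type and less RNA per cell cannot be told apart in these values.

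**Figure D2:**
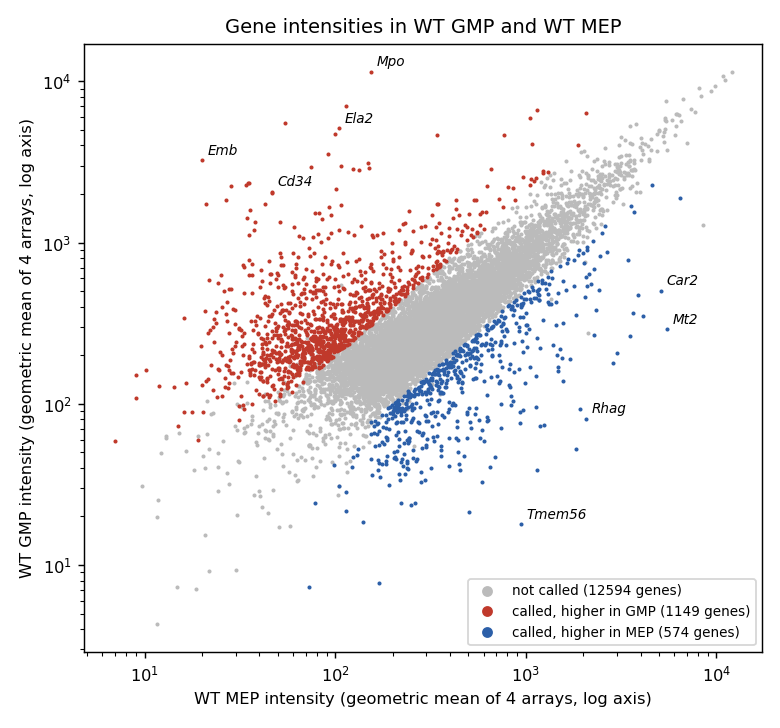
Geometric mean intensity of each tested gene in 4 WT MEPs (horizontal, log axis) and 4 WT GMPs (vertical, log axis), colored by call. The 1149 genes higher in GMPs reach farther from the diagonal than the 574 genes higher in MEPs, with Emb and Mpo at one edge and Tmem56 and Rhag at the other.

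The largest differences toward GMPs were in genes of granules and of the myeloid cell surface. The gene lists below were filtered for an intensity of 200 in 1 array, so a member that is bright in only 1 population had to differ, and their counts are descriptions. Of 13 primary granule genes, 12 were tested, 11 were higher in GMPs and 0 in MEPs, with a median difference of 5.33. With the brightest probeset as the gene value the median was 2.88 and 9 were called. By the methods' analysis of variance (p under 0.001 with no adjustment), run here on linear intensities, 3 were called. Mpo, myeloperoxidase, was 11808, 12407, 10878 and 10806 in GMPs 10 to 13 and 156, 201, 121 and 149 in MEPs. The GMP arrays of Mpo agreed within 771 (SD), and the difference was 6.21 ± 0.16, a 74.3-fold change of measured values (adjusted p = 3.54e-08), with 3 of the 4 MEP arrays below 200. All 15 tested Mpo probesets were higher in GMPs.

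The 3 serine proteases of the same granules were less even among the GMPs. Ela2, neutrophil elastase, was 8430 and 8841 in GMPs 10 and 11 and 2661 and 3444 in the libraries labelled GMP 12 and 13, against 73.5 to 130 in MEPs. Prtn3, proteinase 3, was 9242, 10255, 4541 and 5530 against 99.1 to 151. Ctsg, cathepsin G, was 6794, 7052, 4108 and 4703 against 33.7 to 90.4. In each gene the populations did not overlap, and the folds were at least 25.6 for Ela2, at least 34.9 for Prtn3 and at least 27.6 for Ctsg.

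Other granule genes spanned a wide range of differences. Nkg7, a granule membrane protein, differed by 5.28 ± 0.34 and Serpinb1a, an inhibitor of the granule proteases, by 5.38 ± 0.26. Ctsc, the protease that activates the granule proteases, differed by 2.23 ± 0.32, and Lyz2, lysozyme, by 2.23 ± 0.23. Srgn, the proteoglycan core on which granule proteins are packed, was also high in MEPs, at 1228 ± 38.0 against 2821 ± 439 in GMPs (2.28-fold, adjusted p = 0.000166). Gusb, the lysosomal β-glucuronidase, was the only tested member that was not called (0.53 ± 0.20, adjusted p = 0.0708).

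Genes of the later granules were much closer between the populations. Of 12 secondary and tertiary granule genes, 9 were tested and 3 were higher in GMPs, with a median difference of 0.62. These were Cybb, the catalytic subunit of the phagocyte oxidase (3.06 ± 0.34, at least 1.38-fold), Itgam, the integrin CD11b (1.77 ± 0.28, at least 1.27-fold), and Mmp8, neutrophil collagenase. Mmp8 was 63.8 to 245 in GMPs and 42.7 to 101 in MEPs, and it was not called without GMPs 12 and 13 (adjusted p = 0.247) or when any 1 of GMPs 11 to 13 or MEPs 11 to 13 was left out (adjusted p = 0.0782 to 0.101), nor with the array number as a replicate block (adjusted p = 0.0906). Ltf, lactoferrin, was 156 to 248 in GMPs and 175 to 249 in MEPs, and Ngp and Camp, which are packed in the same granules, had differences of 0.38 ± 0.36 and 0.62 ± 0.27 (adjusted p = 0.462 and 0.107).

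All 5 tested S100 genes had positive differences and 4 were called. S100a8, 1 subunit of calprotectin, was 4030 ± 420 in GMPs and 1920 ± 412 in MEPs (2.12-fold, adjusted p = 0.000868). Its partner S100a9 was 2239, 3102, 2703 and 3124 in GMPs against 826, 2350, 1991 and 2284 in MEPs. Those arrays overlapped, and S100a9 was not called (adjusted p = 0.131). Of the 5 tested subunits of the phagocyte NADPH oxidase, 4 were higher in GMPs. The cytosolic subunits Ncf1 and Ncf4 were at least 2.55-fold and at least 1.90-fold higher. Cyba, which partners Cybb in the membrane, had a difference of 0.98 ± 0.15, just under 2-fold, and 1.21 without GMPs 12 and 13. It passed 2-fold when GMP 12, GMP 13 or MEP 11 alone was left out (1.08 and 1.03 for the GMPs).

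Of 20 transcription factors of granulocytes and monocytes, 10 were higher in GMPs and 0 in MEPs, with a median difference of 1.18. Sfpi1, the gene of PU.1, was 1448, 1217, 1154 and 987 in GMPs and 54.2, 147, 135 and 114 in MEPs. The PU.1 arrays did not overlap, and the difference was 3.50 ± 0.29 (at least 5.95-fold, adjusted p = 2.35e-05). Irf8, which directs monocytes and dendritic cells, was 611 to 806 against 48.8 to 74.1 (3.48 ± 0.15).

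The C/EBP genes differed by less. Cebpa, needed for the step from CMP to GMP, was 427, 417, 312 and 318 in GMPs and 127 to 173 in MEPs (1.24 ± 0.16, adjusted p = 0.00036). Cebpd differed by 1.57 ± 0.33. Cebpe, which drives the late granules, was 629 and 307 in GMPs 10 and 11 but 116 and 139 in the libraries labelled GMP 12 and 13. With all 4 GMPs it was not called (adjusted p = 0.0585; 0.0278 with the array number as a replicate block), and without GMPs 12 and 13 the difference was 2.22 (adjusted p = 0.00101). Leaving out GMP 12 or GMP 13 alone also gave a call (adjusted p = 0.0207 and 0.0394). Cebpb had a difference of 0.82 ± 0.19, and 1.09 without those libraries (adjusted p = 0.00377).

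Gfi1, a repressor that favors granulocytes over monocytes, was 483 and 422 in GMPs 10 and 11 and 170 and 229 in the libraries labelled GMP 12 and 13, against 67.3 to 104 in MEPs (1.87 ± 0.32). Nfil3 differed by 2.62 ± 0.25 (-0.36 with the brightest probeset, adjusted p = 0.126), Runx1 by 1.54 ± 0.14 and Zeb2 by 1.22 ± 0.11. Klf4 and Egr1, factors of monocyte maturation, were not called (adjusted p = 0.0956 and 0.603). Rara, whose human counterpart is the fusion partner in PML-RARA, was 268 ± 127 in GMPs and 183 ± 40.6 in MEPs and was not called (adjusted p = 0.281).

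Monocyte genes were higher in GMPs as a list. Of 16 listed, 13 were tested, 10 were higher in GMPs and 0 in MEPs, with a median difference of 2.02. Csf1r, the receptor for macrophage colony-stimulating factor, was 780, 824, 692 and 763 in GMPs and 37.0 to 63.8 in MEPs (4.09 ± 0.18, at least 3.82-fold). Ly86, the partner of a Toll-like receptor homolog, was 1722 to 2393 against 29.9 to 89.5 (at least 10.1-fold). F13a1, a coagulation factor subunit found in monocytes and platelets, was 1096 to 2290 against 27.3 to 61.3 (at least 8.01-fold). Ccr2, which guides monocytes out of the marrow, was 938 to 1175 against 57.2 to 101 (at least 5.30-fold). Emr1, the gene of the macrophage antigen F4/80, was 106 to 327 against 68.0 to 157 and was not called (adjusted p = 0.245).

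Receptors for myeloid cytokines were nearly all higher in GMPs, with 10 of 12 called and a median difference of 2.51. Csf3r, the receptor for granulocyte colony-stimulating factor, was 732 and 826 in GMPs 10 and 11 and 301 and 435 in the libraries labelled GMP 12 and 13, against 35.9 to 67.3 in MEPs (3.29 ± 0.33). The shared β chain Csf2rb differed by 2.81 ± 0.21, and the signaling chain Il6st by 3.80 ± 0.15. Flt3, a receptor of early lymphoid and myeloid progenitors, ran the other way among the GMPs. It was 212 and 158 in GMPs 10 and 11 and 656 and 529 in the libraries labelled GMP 12 and 13, with 48.2 to 62.0 in MEPs (2.59 ± 0.41). With the brightest probeset the Flt3 difference was -0.20 (adjusted p = 0.408). Ifngr1 was 1297 ± 236 in GMPs and 1258 ± 139 in MEPs (adjusted p = 0.90).

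Of 11 tested innate sensors and adaptors, 8 were higher in GMPs and 0 in MEPs. Clec12a, an inhibitory lectin of myeloid cells, was 2539, 2713, 1932 and 1872 in GMPs and 17.3 to 49.1 in MEPs (6.30 ± 0.29, at least 11.2-fold). The signaling adaptors Tyrobp and Fcer1g were at least 14.6-fold and at least 10.8-fold higher. Tlr4, the endotoxin receptor, was 275, 298, 128 and 86.9 in GMPs against 13.5 to 27.5 in MEPs (2.97 ± 0.40), and Tlr9, a receptor for DNA, was 201 to 448 against 83.7 to 119. Myd88, the adaptor that both use, was 322 ± 143 in GMPs and 527 ± 71.2 in MEPs (adjusted p = 0.0617), and without GMP 11 it was called higher in MEPs (-1.05, adjusted p = 0.0164). Of 9 tested integrins and adhesion genes, 4 were higher in GMPs, among them the integrin Itgal (2.57 ± 0.12), the selectin ligand Selplg (1.79 ± 0.14) and Cd48 (2.36 ± 0.12), each with GMP arrays that lay close together.

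On the MEP side, transcription factors of red cells and megakaryocytes did not move as 1 group. Of 20 tested, 7 were higher in MEPs, 5 were higher in GMPs and 8 were not called, with a median difference of -0.26. Without GMPs 12 and 13 the counts were 9 in MEPs and 4 in GMPs (median -0.47), and without GMPs 10 and 11 they were 4 and 6 (median -0.06). Gata1 was 85.9 and 114 in GMPs 10 and 11, 420 and 544 in the libraries labelled GMP 12 and 13, and 1473, 1514, 1663 and 1398 in MEPs. The difference was -2.80 ± 0.54 (6.94-fold, adjusted p = 0.00366), and -3.93 without GMPs 12 and 13. Klf1 had the same shape, at 77.3, 98.2, 359 and 485 in GMPs against 1496 to 1832 in MEPs (-3.17 ± 0.54). Even the higher GMP arrays of both genes stayed below every MEP.

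Zfpm1, the gene of FOG1, differed by -1.70 ± 0.42, Gfi1b by -2.25 ± 0.49, Tal1 by -1.15 ± 0.24 and Bcl11a, a repressor of fetal globin genes, by -1.12 ± 0.30. Without GMPs 10 and 11, Zfpm1, Tal1 and Bcl11a were under 2-fold (-0.83, -0.72 and -0.50). Bcl11a was also under 2-fold without GMP 10 or GMP 11 alone (-0.91 and -0.92), and Tal1 without GMP 11 (-0.94). Nfia, a factor that favors red cells over granulocytes, was 105, 85.4, 269 and 269 in GMPs and 1197 to 1746 in MEPs (-3.21 ± 0.37, 9.23-fold), but its difference was 0.0639 (adjusted p = 0.784) with the brightest probeset as the gene value. The complex partners Lmo2 and Ldb1 were high in both populations, at 647 ± 55.6 and 1148 ± 356 in GMPs and 818 ± 159 and 1992 ± 190 in MEPs. Ldb1 was under 2-fold (-0.84 ± 0.21), and -1.24 without GMPs 12 and 13 (adjusted p = 0.000474).

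The 5 listed factors that were higher in GMPs are known from megakaryocytes or from earlier progenitors. Fli1, a factor of megakaryocytes and endothelium, was 1064, 1264, 1124 and 1222 in GMPs and 65.1 to 171 in MEPs (3.33 ± 0.26, at least 5.83-fold). Mef2c, which acts in lymphoid and megakaryocyte development, was 707 and 601 in GMPs 10 and 11 and 1142 and 1116 in the libraries labelled GMP 12 and 13, against 82.6 to 125 in MEPs. Ikzf2, Lyl1 and Hhex differed by 2.02 ± 0.23, 1.35 ± 0.18 and 1.10 ± 0.16, and Hhex fell below the fold limit without GMPs 12 and 13 (0.89, adjusted p = 0.0043).

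Of 8 tested erythroid and megakaryocyte receptors, 3 were higher in MEPs, 0 in GMPs and 5 were not called, with a median difference of -0.28. The 3 called were the receptor for erythropoietin and those for transferrin. Epor, the erythropoietin receptor, was 53.5, 69.1, 284 and 253 in GMPs and 655 to 960 in MEPs (-2.68 ± 0.51, 6.43-fold). Tfrc, the main transferrin receptor, was 786, 802, 588 and 591 in GMPs and 2170 to 2362 in MEPs (-1.73 ± 0.14). The libraries labelled GMP 12 and 13, which were higher than GMPs 10 and 11 in Epor, were lower in Tfrc. The second transferrin receptor, Trfr2, differed by -1.87 ± 0.31.

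Of 19 tested genes of heme synthesis and iron handling, 15 were higher in MEPs and 2 in GMPs, with a median difference of -1.44. Enzymes along the heme pathway were called one after another, with Alad at -2.15 ± 0.22, Uros at -1.22 ± 0.18, Urod at -1.54 ± 0.13, Cpox at -3.13 ± 0.13, Ppox at -1.65 ± 0.15 and Fech, which inserts the iron, at -1.38 ± 0.19. Cpox was 147, 177, 153 and 201 in GMPs and 1482, 1592, 1397 and 1406 in MEPs, an 8.73-fold change with little spread in either population. Blvrb, a biliverdin reductase abundant in red cells, was 249 and 227 in GMPs 10 and 11, 833 and 1082 in the libraries labelled GMP 12 and 13 and 3462 to 4211 in MEPs (-3.04 ± 0.48). Steap3, which reduces iron in endosomes, differed by -2.36 ± 0.16, and the iron transporter Slc11a2, also called, was 135 to 224 in GMPs and 593 to 831 in MEPs.

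The first step of the pathway was the exception. Alas1, the housekeeping form of the enzyme, was higher in GMPs, at 2286 and 2442 in GMPs 10 and 11 and 632 and 829 in the libraries labelled GMP 12 and 13 against 153 to 285 in MEPs (2.53 ± 0.44, 5.79-fold). Alas2, the red cell form, was 73.6 to 137 in GMPs and 89.3 to 202 in MEPs, near or under 200 throughout, and was not called (adjusted p = 0.169). Hmox1, which breaks heme down, was also higher in GMPs (1.26 ± 0.25), but not at 2-fold without GMPs 12 and 13 (0.88). Slc25a37, the mitochondrial iron importer of red cells, was 362 ± 47.0 in GMPs and 376 ± 24.6 in MEPs. Of 8 globin and globin chaperone genes only Hba-x and Hbb-b1 could be tested, and neither was called (adjusted p = 0.44 and 0.457).

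Red cell membrane genes were higher in MEPs as a list. Of 16 tested, 12 were higher in MEPs and 0 in GMPs, with a median difference of -2.70 (-2.11 without GMPs 10 and 11). Rhag, which carries the Rh complex to the membrane, was 24.8 and 33.1 in GMPs 10 and 11, 268 and 194 in the libraries labelled GMP 12 and 13, and 2016, 2082, 2058 and 2143 in MEPs (-4.68 ± 0.70). Rhd was 62.2 to 154 in GMPs and 1758 to 2103 in MEPs (at least 9.66-fold), and Ermap, a red cell membrane protein, was 60.0, 59.4, 540 and 547 against 2706 to 3105. Kel, a blood group antigen, differed by -3.55 ± 0.45, and Ank1, which ties the skeleton to the membrane, by -3.39 ± 0.26 with 52 of 54 tested probesets called. The skeleton genes Spnb1, Add2 and Epb4.2 differed by -2.49 ± 0.17, -2.92 ± 0.16 and -1.98 ± 0.17.

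Some membrane genes of the list were closer. Slc4a1, the band 3 anion exchanger, was 162 to 265 in GMPs and 234 to 307 in MEPs (adjusted p = 0.262). Gypc differed by -0.79 ± 0.15, under 2-fold, and Cd47, present on most blood cells, by 0.22 ± 0.13. Of 8 tested red cell enzymes, 5 were higher in MEPs, with a median of -2.77 (-4.05 without GMPs 12 and 13, and -1.34 without GMPs 10 and 11). Pklr, the red cell pyruvate kinase, was 98.8, 78.2, 163 and 296 in GMPs against 1473 to 1616 in MEPs (-3.50 ± 0.35, 11.3-fold). Aldh1a1, which makes retinoic acid from retinal, was 42.7 to 159 against 850 to 1021 (at least 4.68-fold). Car2, the second carbonic anhydrase, was 153, 193, 1703 and 1253 in GMPs and 4525 to 5502 in MEPs (-3.35 ± 0.72). Car1, given above, differed by -2.74 ± 1.03 and was not called with all 4 GMPs (adjusted p = 0.0647), but by -4.90 without GMPs 12 and 13 (adjusted p = 1.41e-06) and -0.57 without GMPs 10 and 11. Leaving out GMP 12 or GMP 13 alone was enough for a call (-3.49 and -3.43).

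**Figure D3:**
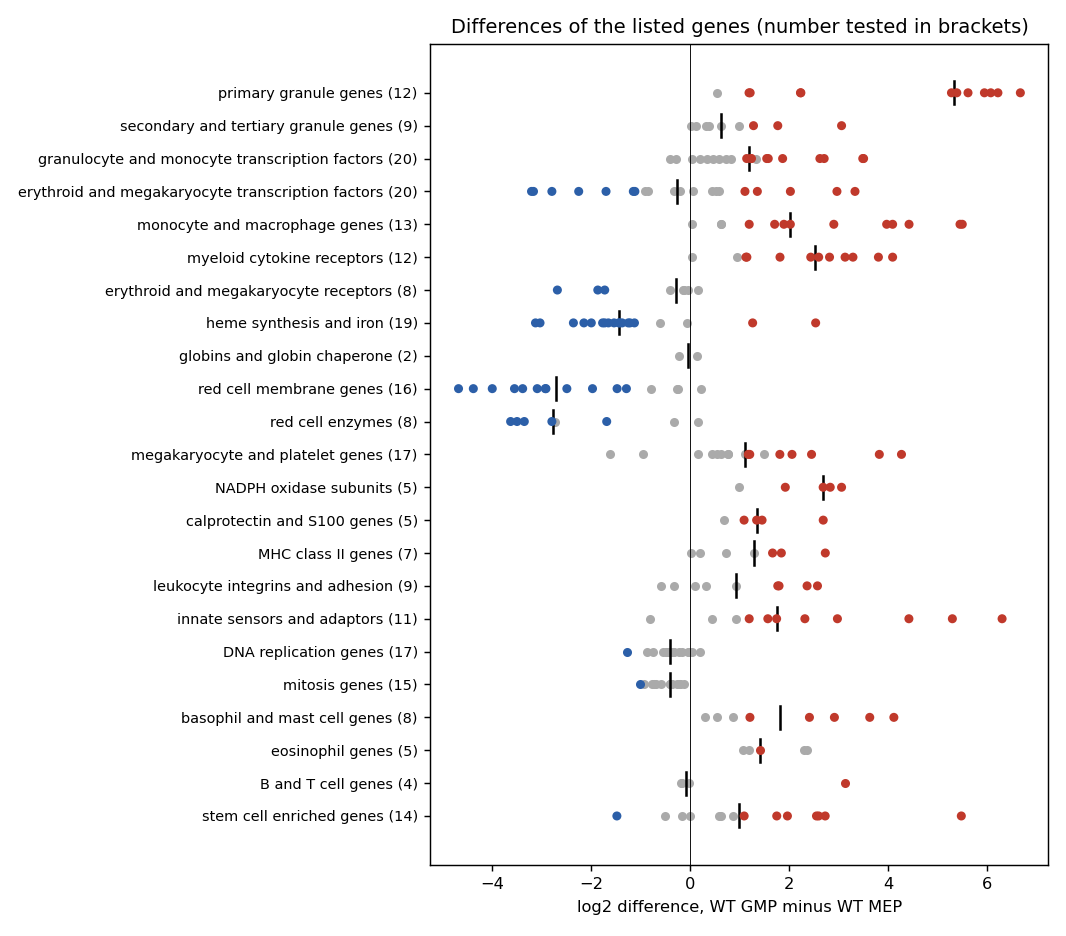
Log2 difference, WT GMP minus WT MEP, of each tested gene by list, in red or blue when called and gray when not, with a black bar at the median of the list. Primary granule genes center at 5.33 and red cell membrane genes at -2.70, while transcription factors of red cells and megakaryocytes spread to both sides.

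Several lists toward GMPs were shorter under other settings. With the brightest probeset, 7 of 12 myeloid cytokine receptors, 5 of 11 innate sensors and adaptors, 4 of 14 stem cell genes, 3 of 8 basophil and mast cell genes and 1 of 7 MHC class II genes were called higher in GMPs. By the methods' analysis of variance the counts were 6 of 20 granulocyte and monocyte factors, 5 cytokine receptors, 3 sensors, 2 stem cell genes, 3 basophil genes, 2 of 5 oxidase subunits and 1 of 5 S100 genes, and 3 factors each way among those of red cells and megakaryocytes.

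Genes of megakaryocytes and platelets, which the MEP gate is meant to hold, were mostly not higher in MEPs. Of 20 listed, 17 were tested, 7 were higher in GMPs, 0 in MEPs and 10 were not called, with a median difference of 1.11. Pf4, platelet factor 4, was 656 and 469 in GMPs 10 and 11, 2500 and 1758 in the libraries labelled GMP 12 and 13, and 89.3, 65.6, 89.0 and 65.3 in MEPs (3.82 ± 0.48, at least 5.39-fold). CMPs 11 to 13 had 2079, 504 and 380. Plek, a signaling protein of platelets and leukocytes, was 293, 276, 1043 and 735 against 19.6 to 40.0, and Cd9, a tetraspanin, was 529 ± 190 against 154 ± 59.1. Summed over the 17 genes, intensity was 2818 and 2734 in GMPs 10 and 11 and 8858 and 6307 in the libraries labelled GMP 12 and 13. The sum was 6474, 2729 and 2888 in CMPs 11 to 13. In MEPs it was 1893 to 1982, where 2 of the 17 reached 200 in each array.

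This list depended on which GMPs were used. Without GMPs 12 and 13 its counts were 5 higher in GMPs and 2 in MEPs with a median of 0.34, and without GMPs 10 and 11 they were 10 and 0 with a median of 1.54. With the brightest probeset 5 were called (median 0.49), with 200 required in 4 arrays 4 of 12 (median 0.27), and by the methods' analysis of variance 0 (2 after adjustment). Itga2b and Itgb3, the chains of the fibrinogen receptor, differed by 1.20 ± 0.34 and 1.17 ± 0.23 and by 0.53 and 0.80 without GMPs 12 and 13, when neither was called. Itga2b was also lost without GMP 12, GMP 13, MEP 11 or MEP 13 alone (in order 0.92, and adjusted p = 0.0602, 0.0612 and 0.0579), and Itgb3 without GMP 12 (0.93). Gp5, a subunit of the von Willebrand factor receptor, was 42.9 and 53.6 in GMPs 10 and 11, 339 and 226 in the libraries labelled GMP 12 and 13, and 297 to 414 in MEPs. With all GMPs it was not called (adjusted p = 0.0695; 0.0394 with the replicate block), and without GMPs 12 and 13 it was higher in MEPs (-2.88, adjusted p = 1.9e-05), as it was without GMP 12 or GMP 13 alone (-2.14 and -1.94). Gp1ba, which sits in the same receptor, went the same way (-0.96 ± 0.54, -1.96 without GMPs 12 and 13, and -1.53 without GMP 12).

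Basophil and eosinophil genes were read as markers of other cells that GMP gates can hold. Of 8 tested basophil and mast cell genes, 5 were higher in GMPs. Cpa3, the mast cell carboxypeptidase, was 719, 563, 786 and 503 in GMPs and 29.4 to 50.4 in MEPs, and Mcpt8, a basophil protease, was 778, 678, 415 and 443 against 31.5 to 58.3. Hdc, which makes histamine, was 1155 and 1068 in GMPs 10 and 11 but 193 and 299 in the libraries labelled GMP 12 and 13. Of 5 tested eosinophil genes, 1, Siglec5, was called with all GMPs and 4 without GMPs 12 and 13. Prg2, eosinophil major basic protein, was 2812 and 2431 in GMPs 10 and 11, 88.7 and 149 in the libraries labelled GMP 12 and 13, and 83.2 to 223 in MEPs. Its difference of 2.36 was not called with all GMPs (adjusted p = 0.131) but was 4.61 without GMPs 12 and 13 (adjusted p = 0.00011) and 3.24 without GMP 12 (adjusted p = 0.0317). The eosinophil sum was 470 to 4419 in GMPs, 437 to 7181 in CMPs and 287 to 557 in MEPs. Of 4 tested B and T cell genes 1 was called, Cd79b, a chain of the B cell receptor, at 513 to 822 in GMPs and 52.7 to 129 in MEPs. The part of such cells in the other differences was not tested.

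Few cell cycle genes passed 2-fold, but their levels leaned toward MEPs. Of 17 tested DNA replication genes 1, Cdc6, was higher in MEPs (-1.29 ± 0.19), with a median of -0.42. Of 15 tested mitosis genes 1, Plk1, was higher in MEPs (-1.02 ± 0.21), with a median of -0.40, and all 15 had negative differences. Summed over each list, intensity was 11754 to 13579 in GMPs and 15803 to 16408 in MEPs for replication, and 9546 to 11950 in GMPs and 14485 to 15665 in MEPs for mitosis, so the sums of the populations did not overlap in either list. Neither reached 2-fold without GMPs 12 and 13 (-0.95 and -0.73), and Plk1 was also under 2-fold without any 1 of GMPs 10, 12 and 13 and MEPs 11 and 13 (smallest in size without GMP 13, at -0.90). With no fold threshold 7 replication and 9 mitosis genes were higher in MEPs and 0 in GMPs, as Mcm7 (-0.56 ± 0.11, adjusted p = 0.00474) and Birc5 (-0.69 ± 0.12, adjusted p = 0.00198). Of all 14317 genes tested, 2392 were higher in MEPs and 2038 in GMPs with no fold threshold. At 2-fold, 4.01% of all genes were higher in MEPs.

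Of 14 tested genes enriched in stem cells, 7 were higher in GMPs and 1 in MEPs. Cd34 is 1 of the 7, and the sort itself fixed its direction. Meis1, a homeobox gene, was 199, 168, 413 and 318 in GMPs and 39.1 to 55.1 in MEPs (at least 1.29-fold), and Hlf differed by 1.96 ± 0.21. Hoxa9, which works with Meis1, was 325 to 386 against 130 to 195 (1.09 ± 0.16, and 0.98 without MEP 12). Mllt3 was the 1 member higher in MEPs, at 707 to 941 against 213 to 370 (-1.48 ± 0.20). Mycn was 68.6 and 53.8 in GMPs 10 and 11 and 555 and 335 in the libraries labelled GMP 12 and 13, against 13.3 to 39.7 in MEPs. It was called with all arrays (2.72 ± 0.73), but not without GMPs 12 and 13 (adjusted p = 0.0552) or without MEP 11 (adjusted p = 0.0537). Of 7 MHC class II genes, 3 were higher in GMPs with a median of 1.28 (2 and 0.58 without GMPs 12 and 13, 4 and 1.97 without GMPs 10 and 11), and the peptide-loading genes H2-DMa and H2-DMb1 differed by 1.84 ± 0.20 and 2.73 ± 0.29.

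Related genes did not always differ alike. Gfi1 was at least 1.49-fold higher in GMPs and Gfi1b 4.77-fold higher in MEPs, with no overlap between the populations in either gene. Alas1 and Alas2, Gata2 and Gata1, and Klf4 and Klf1 were each called in 1 member only. Gata2, which acts in stem cells and mast cells as well as in megakaryocytes, was 340, 377, 961 and 810 in GMPs and 333 to 437 in MEPs. It was not called with all GMPs (0.58 ± 0.32, adjusted p = 0.208), differed by -0.07 without GMPs 12 and 13, and by 1.24 without GMPs 10 and 11. Bcl2, which protects cells from apoptosis, was 660, 591, 828 and 750 in GMPs and 89.6 to 135 in MEPs (2.74 ± 0.16, at least 3.51-fold). Its relative Bcl2l1, needed by maturing red cells, was 295 ± 114 and 199 ± 44.2 (adjusted p = 0.189).

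**Figure D4:**
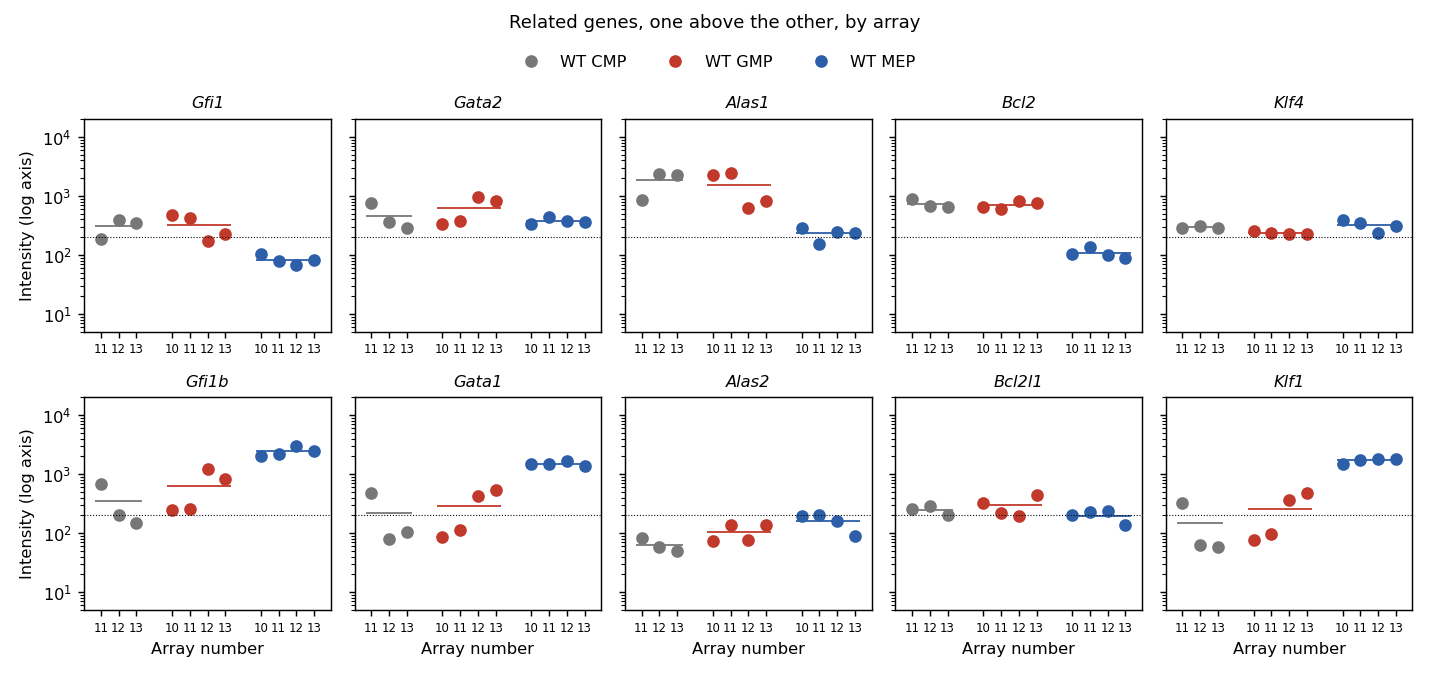
Expression intensity (log axis) by WT array of 5 pairs of related genes, one member above the other, with a bar at the mean of each population and a dotted line at 200. Gfi1 and Bcl2 lie higher in GMPs and Gfi1b, Gata1 and Klf1 higher in MEPs, whereas Gata2, Klf4, Alas2 and Bcl2l1 were not called.

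Among the 15 called genes with the largest difference toward GMPs, at least 2 tested probesets and no overlap, several lay outside the lists. Emb, the gene of the adhesion molecule embigin, had the largest, at 3719, 3475, 3301 and 2628 in GMPs and 22.1, 20.1, 10.6 and 34.5 in MEPs (7.34 ± 0.31, at least 16.3-fold). Ms4a6c, Cd53 and Plac8 were at least 8.63-fold, at least 11.8-fold and at least 23.5-fold higher. Their 4 GMP arrays were close, at 1612 to 1789, 1851 to 2594 and 4282 to 4961. Cd34, also among the 15, was used in the sort. Ms4a3, given above, was still at least 11.4-fold higher with all 4 GMPs.

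Toward MEPs, Tmem56 led at 887, 909, 870 and 1110 in MEPs and 13.5 to 23.3 in GMPs (-5.71 ± 0.18, at least 4.70-fold). Cldn13, a claudin gene of mouse, was 1589 to 2078 against 37.6 to 121, and the tetraspanin Tspan8 was 1034 to 1220 against 17.2 to 77.7. Mt2, a metallothionein that binds zinc and copper, was 5048 to 6203 in MEPs and 214, 44.8, 793 and 934 in GMPs. Atp7b, a copper transporter, was 1039 to 1461 against 48.0 to 110 (at least 5.91-fold), and Slc25a21, a mitochondrial carrier, was 549 to 779 against 17.4, 17.5, 129 and 120. Ddx4, a germ cell helicase, was under 200 in all GMPs and 89.6 to 278 in MEPs, with 2 of 3 tested probesets called.

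Start sites of 6 called genes, 3 from each side, are printed to show where letters bound by GATA, PU.1 and C/EBP factors lie. They were chosen after their values were seen, and only among starts that hold such letters. Other called genes held none at their listed start, such as Ctsg and Ms4a3, higher in GMPs, and Add2 and Urod, higher in MEPs. The sequences are from RefSeq (GRCm38.p6), 250 bases before the transcription start to 20 after it, 5′ to 3′ on the gene's strand, and capitals mark AGATAA or TGATAA for GATA factors, GAGGAAGT for PU.1 and TTGCGCAA for C/EBP factors, or their reverse complements. Kel, Rhd and Cpox were higher in MEPs and Mpo, Prtn3 and Clec12a in GMPs.
Kel (chr6:41704306-41704575, - strand): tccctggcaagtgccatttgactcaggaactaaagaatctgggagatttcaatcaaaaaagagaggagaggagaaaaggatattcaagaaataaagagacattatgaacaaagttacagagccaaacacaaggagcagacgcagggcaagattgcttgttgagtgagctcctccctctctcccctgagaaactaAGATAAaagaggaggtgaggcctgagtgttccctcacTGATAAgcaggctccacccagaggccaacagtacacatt
Rhd (chr4:134864286-134864555, + strand): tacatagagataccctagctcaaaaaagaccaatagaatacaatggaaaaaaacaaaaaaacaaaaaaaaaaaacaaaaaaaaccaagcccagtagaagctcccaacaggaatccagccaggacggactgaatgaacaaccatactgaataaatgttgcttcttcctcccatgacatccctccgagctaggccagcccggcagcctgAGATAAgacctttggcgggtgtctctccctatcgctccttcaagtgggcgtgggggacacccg
Cpox (chr16:58669958-58670227, + strand): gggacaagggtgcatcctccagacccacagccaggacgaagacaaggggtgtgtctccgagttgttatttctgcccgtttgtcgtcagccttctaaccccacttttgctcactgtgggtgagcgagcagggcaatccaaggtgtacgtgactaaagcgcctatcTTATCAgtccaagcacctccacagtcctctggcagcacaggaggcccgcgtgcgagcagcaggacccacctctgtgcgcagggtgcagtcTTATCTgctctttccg
Mpo (chr11:87793534-87793803, + strand): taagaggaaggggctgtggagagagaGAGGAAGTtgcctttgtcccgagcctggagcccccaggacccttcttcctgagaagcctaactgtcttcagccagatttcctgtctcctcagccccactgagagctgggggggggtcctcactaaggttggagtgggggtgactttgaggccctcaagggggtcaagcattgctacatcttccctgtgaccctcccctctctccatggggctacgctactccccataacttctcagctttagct
Prtn3 (chr10:79879417-79879686, + strand): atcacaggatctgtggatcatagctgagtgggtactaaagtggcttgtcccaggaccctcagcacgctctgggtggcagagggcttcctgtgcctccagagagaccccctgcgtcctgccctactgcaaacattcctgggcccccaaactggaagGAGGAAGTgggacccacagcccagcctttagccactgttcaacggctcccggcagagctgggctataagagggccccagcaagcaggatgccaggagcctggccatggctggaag
Clec12a (chr6:129349994-129350263, + strand): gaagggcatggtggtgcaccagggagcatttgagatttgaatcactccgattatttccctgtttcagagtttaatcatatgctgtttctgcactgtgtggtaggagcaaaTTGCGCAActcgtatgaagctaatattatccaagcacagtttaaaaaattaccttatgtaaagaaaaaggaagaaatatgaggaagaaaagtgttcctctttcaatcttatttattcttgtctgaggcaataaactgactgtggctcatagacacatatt

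Kel holds AGATAA and TGATAA 56 and 19 bases before its start, Rhd AGATAA 43 bases before, and Cpox TTATCA, the reverse complement of TGATAA, 86 bases before and TTATCT, the reverse complement of AGATAA, 4 bases after it. Mpo holds GAGGAAGT 224 bases and Prtn3 the same letters 95 bases before the start, and Clec12a holds TTGCGCAA 140 bases before. Over 250 bases before to 50 after each start, on both strands, AGATAA or TGATAA was found in 12.8% of the 11380 tested genes, of 14317, that matched a promoter in the table, in 19.0% of 457 genes higher in MEPs and in 16.3% of 901 higher in GMPs. At 4-fold or more the shares were 32.5% of 117 and 18.1% of 337. GAGGAAGT was found in 3.56% of tested genes, 9.1% of those higher in GMPs and 3.28% of those higher in MEPs, and at 4-fold or more in 11.9% and 2.56%. Over all 27025 genes of the table the shares were 21.0% for GATA and 3.69% for PU.1. CCACACCC, the letters bound by KLF1, stood in 4.55% of tested genes, 4.99% of those higher in GMPs and 5.03% of those higher in MEPs. TTGCGCAA or TTGCGAAA stood in 0.554%, 0.777% and 0.219%, and GCTGAGTCA, bound by NF-E2, in 0.554%, 1.22% and 1.09%. Genes had 1.27 listed starts on average when tested, 1.34 when higher in GMPs and 1.31 when higher in MEPs. A match is a description of letters and not a bound site.

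An exon array reads a gene at many exons, and in 27 genes called probesets pointed both ways. Rabgap1l had 6 of 34 tested probesets higher in GMPs and 18 higher in MEPs. One of its probesets was 1017, 1150, 1228 and 1306 in GMPs and 136 to 252 in MEPs, and another was 25.4 to 144 in GMPs and 292 to 363 in MEPs. Tcf7l2, a factor of Wnt signaling, had 9 of 14 probesets higher in GMPs and 2 higher in MEPs. With the brightest probeset as the gene value, Tcf7l2 and Tsc22d1 turned to -0.20 and -0.0913 and Rabgap1l to 1.46. Tsc22d1 had 11 of 22 and 3, and its gene value (1.05 ± 0.23) was under 2-fold without GMP 12 or GMP 13 (0.91 each). Shisa5 had 2 of 12 and 1, with a gene value of 0.95 ± 0.19, and 1.12 without MEP 10. The gene value of Rabgap1l was -0.91 ± 0.19, and just past 2-fold without GMP 12 (-1.04) or without GMP 13. Abcg2, a membrane transporter that exports porphyrins, had 1 of 16 higher in GMPs and 14 higher in MEPs. The Abcg2 probeset that went against the others was 199, 114, 204 and 151 in GMPs and 20.9, 17.4, 50.9 and 139 in MEPs, near or under 200 throughout. Which transcripts these probesets read was not analysed here.

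**Figure D5:**
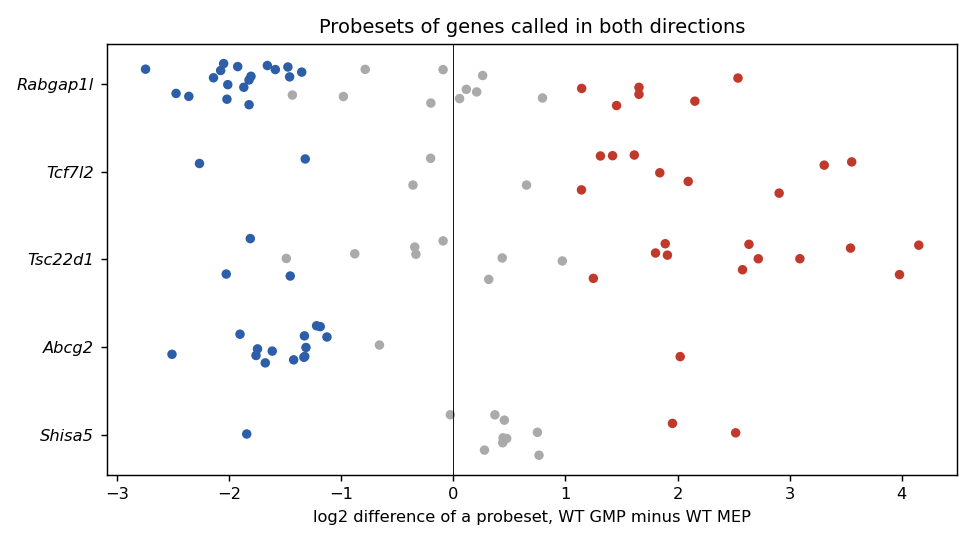
Log2 difference, WT GMP minus WT MEP, of each tested probeset of the 5 genes whose probesets were most opposed, in red when called higher in GMP, blue when called higher in MEP and gray when not called (points are spread vertically for legibility). Rabgap1l and Tcf7l2 have groups of called probesets on both sides of 0, whereas Abcg2 has a single called probeset higher in GMPs and Shisa5 a single called probeset higher in MEPs.

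The same step was measured in mCG-PR mice, with no array shared. There, 1097 of 15695 genes were higher in GMPs (6.99%) and 901 in MEPs (5.74%). Of the WT calls tested in both, 819 genes higher in GMPs were called in both genotypes, 72.7% of the WT list and 77.2% of the mCG-PR list. Of those higher in MEPs, 461 were, 81.6% of the WT list and 51.5% of the mCG-PR list. No WT call was called the opposite way. The mCG-PR MEPs were less even, as Mpo was 210 and 374 in MEPs 13 and 14 and 2227 and 1776 in MEPs 15 and 16, and Cd34 was 62.4, 33.1, 225 and 163. Car1 was 58.4 to 156 in mCG-PR GMPs and 7858 to 9227 in MEPs (-6.16).

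The difference of the step between genotypes was tested directly, as the interaction of population and genotype. Of 15908 genes 17 passed at an adjusted p under 0.05 (0.107%), and 1060 had an unadjusted p under 0.05. Among the genes named here 1 passed, Cd93, a surface protein of early progenitors and myeloid cells. Cd93 was 2005, 1917, 1873 and 1610 in WT GMPs and 874, 418, 837 and 382 in mCG-PR GMPs, and no MEP of either genotype exceeded 62.5. The MEP values thus all lay under 200, so the sizes of both steps and of their difference rest partly on values under the noise limit. The step was 6.11 in WT and 3.87 in mCG-PR mice, and their difference was -2.24 ± 0.40 (adjusted p = 0.0466). Leaving out 1 array moved that adjusted p from 0.0301 to 0.112, and without WT GMPs 12 and 13 it was 0.16. WT mice were 7 and mCG-PR mice 9 weeks old, so genotype and age cannot be told apart in this comparison. Pf4, whose step was 3.82 in WT and 0.69 in mCG-PR mice, did not pass (difference -3.13 ± 0.62, adjusted p = 0.0848), and mCG-PR GMPs held 116 to 293 of it.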

How the data were processed

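RNA of flow-sorted progenitors was measured on Affymetrix Mouse Exon 1.0 ST arrays after amplification. The authors normalized the arrays by RMA, and the deposited intensity of each of 451804 probesets is on a linear scale; the submitters' processing notes also name Partek 6.6 and mm9. The array number limits precision. RMA shares its scale over all arrays, so a level depends on the other arrays. Here log2 values were taken with no pseudocount, except in the methods' analysis of variance, which was run on linear intensities. The paper does not state the scale of its own analysis of variance, so those counts also depend on this choice. Of the probesets, 259411 had 1 gene symbol in the platform annotation, 1897 several and 190496 none, and only the first were used, since the annotation does not mark the core class that the study tested. limma 3.58.1 (R 4.3.3; lmFit, eBayes) was fitted to the 8 WT arrays, to the 8 mCG-PR arrays and, for the interaction, to all 16, with Benjamini-Hochberg adjustment. Each array is a separate sorted sample; p-values measure the spread between these samples. On simulated data with the comparison's spread, 84 of 100 changes of 1.5 (log2) and 98 of 100 of 3 were called among 14317 genes. The data themselves had 4430 genes at an adjusted p under 0.05, so these rates need not hold for them. Genes named are members of gene lists and pairs, the 15 largest differences each way and 5 genes with opposed probesets. The comparison, lists, pairs and motifs were chosen with earlier results of these data known. Alternatives covered the filter, normalization, samples, replicate block, threshold, test, gene value and arrays left out. Sequences are from RefSeq tables of GRCm38.p6, a build other than that of the files, and serve only to show promoters.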

Additional observations from a re-analysis of the deposited data

Results flagged for a closer look

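In 298 groups of 4 arrays (149 genes in GMPs and in MEPs), 18 held an array far from the other 3 by Dixon's test, where chance flags about 1 in 20. In MEP 10, Ccr2 was 101 against 57.2 to 60.9, Cyba 323 against 374 to 379, F13a1 61.3 against 27.3 to 31.7, Meis1 55.1 against 39.1 to 41.7 and Shisa5 707 against 416 to 464. In MEP 11, Egr1 was 250 against 131 to 143, Gp1ba 161 against 264 to 270, Lyz2 254 against 155 to 167 and Prg2 223 against 83.2 to 83.8. In MEP 12, Lmo2 was 1054 against 715 to 764. In MEP 13, Itgb3 was 88.8 against 71.9 to 74.4, Pklr 1473 against 1599 to 1616, Tmem56 1110 against 870 to 909 and Zfpm1 778 against 1076 to 1115. Among GMPs, Ddx4 was 19.6 and Ltf 156 in GMP 10, against 5.03 to 6.66 and 240 to 248, Cldn13 was 121 in GMP 12 against 37.6 to 42.3, and Cd53 was 1851 in GMP 13 against 2491 to 2594.

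The step of Cd93 from MEP to GMP differed between genotypes by -2.24 (interaction in limma, adjusted p = 0.0466), and the adjusted p stayed under 0.05 in 3 of 16 fits that left out 1 array. Every MEP value of Cd93 was under 200, so the size of this difference is uncertain.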

How the results depend on the processing

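With no fold threshold 4430 genes and 30698 probesets were called, 46.0% and 48.7% of them higher in GMPs against 66.7% and 60.6%, and with the methods' analysis of variance 887 and 6682, 56.3% and 54.0% higher in GMPs. The other alternatives kept these counts within 1.5 times. Leaving out 1 array gave 1651 to 1836 genes and 16673 to 18332 probesets in WT and 1770 to 2096 genes in mCG-PR mice. The 17 genes whose step differed between genotypes became 3 (without WT MEP 11) to 31 (without mCG-PR GMP 16) with 1 array left out, 4 without mCG-PR MEPs 15 and 16, 4 without WT GMPs 12 and 13 and 137 without WT GMPs 10 and 11; the cause was not tested. The shared array numbers were not taken as pairs. Deviations of same-numbered arrays from their population correlated at 0.117, 0.057, 0.108 and 0.0365, for each GMP the highest value with any MEP. Sex, read from Xist, also went with the number in both populations. Whether same-numbered arrays came from the same mouse was not tested, and these small values do not decide it. With the replicate block 1739 genes and 17766 probesets were called in WT and 1993 genes in mCG-PR mice. Of the named genes the block added Cebpe and Gp5 and dropped Mmp8.

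Of 149 named genes 115 were called, and 64 of these kept their call under every alternative. Among called genes 5 changed sign in some alternative, each with the brightest probeset as the gene value: Flt3 (-0.20), Nfia (0.0639), Nfil3 (-0.36), Tsc22d1 (-0.0913) and Tcf7l2 (-0.20, and -0.0602 with 200 required in 4 arrays). Rabgap1l then became 1.46. Genes not called also changed sign. With the brightest probeset Alas2 became 0.20, Ifngr1 -0.0684, Kit -0.0496 and Slc25a37 0.0485. With 200 required in 4 arrays Alas2 was 0.20. With no filter Cebpb became -0.18, Egr1 -0.0427, Hba-x -0.0565 and Klf4 0.57. With the mean of probesets Slc25a37 became 0.0546. Without WT GMPs 12 and 13 Egr1 became -0.0491, Gata2 -0.0658, Kit -0.13, Ltf -0.15, Rara -0.0525 and Slc25a37 0.05, and without WT GMPs 10 and 11 Gp1ba became 0.0349 and Ifngr1 -0.20. With 1 array left out Ifngr1 ranged from -0.0479 to 0.113, Kit from -0.01 to 0.257 and Ltf from -0.0905 to 0.169. The causes were not tested. Intensities under 200 lie under the noise limit, so log2 differences of genes dim in one population, and list medians that include them, rest partly on noise. These differences are not bounds. Only the folds written as "at least" are lower bounds.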
